A study of Mus musculus with 6 samples.

Results

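The keratins of stratified squamous epithelium were described as 9 genes measured by 12 probes on arrays that held 41174 probes. The genes were chosen by name, as Krt5, Krt14 and Krt15 of the basal layer and Krt4, Krt13, Krt1, Krt10, Krt78 and Krt76 of the layers above it. All 9 were on the array and all 9 were among the 20575 genes tested, since each of their probes stood clear of the background in Cy5 on all 6 arrays (the software's flag for a signal well above background). The RNA came from epithelial sheets of the mouse forestomach, the squamous-lined part of the stomach. The 3 controls carried K5-CreER, a tamoxifen-activated Cre recombinase driven by a keratin 5 promoter, and the 3 mutants carried K5-CreER together with Rosa26Sox2/Sox2, with both Rosa26 alleles bearing a Sox2 transgene. Both groups were of a mixture of C57/BL6 and another strain, received 2 doses of tamoxifen from the age of 7 weeks, and are labelled 12 weeks old. Each array compared 1 sample, in Cy5, with Agilent's Universal Mouse Reference RNA from 11 cell lines, in Cy3. Because the promoter that drives Cre is that of a basal keratin, recombination was directed to the cells that express Krt5, which is itself one of the genes described here.

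Keratins are the intermediate filament proteins of epithelial cells. A filament is built from pairs of one type I and one type II keratin, and in squamous epithelia the pair changes as a cell leaves the basal layer: Krt5 with Krt14 in dividing basal cells, Krt4 with Krt13 above them in moist mucosa, and Krt1 with Krt10 above them in cornifying epithelium. Their transcripts are among the most abundant of the tissue and serve as standard labels of its layers.

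The probes are 60-base oligonucleotides, placed here by the coordinates of the files (build mm9, all on the minus strand except 1 of Krt1). The 6 shown first are those of Krt14 and Krt15, the basal genes whose sample signals lay farthest from the controls, of Krt4, and the 3 behind the comparisons within Krt13 and Krt10. They are given 5′ to 3′ in lower case.
Krt14: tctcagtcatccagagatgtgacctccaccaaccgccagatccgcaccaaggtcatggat
Krt15: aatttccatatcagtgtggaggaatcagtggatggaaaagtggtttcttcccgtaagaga
Krt4: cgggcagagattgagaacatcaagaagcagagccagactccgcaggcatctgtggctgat
Krt13 first probe: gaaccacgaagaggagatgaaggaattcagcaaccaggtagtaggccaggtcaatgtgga
Krt13 second probe: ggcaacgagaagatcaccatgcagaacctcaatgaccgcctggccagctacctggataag
Krt10 second probe: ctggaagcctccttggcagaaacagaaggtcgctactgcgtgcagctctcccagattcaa

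The Krt14 probe lay at chr11:100064683-100065288, the Krt15 probe at chr11:99993340-99993399 and the Krt4 probe at chr15:101750158-101750736. The first Krt13 probe lay at chr11:99980710-99980948, the second at chr11:99982471-99982530, and the second Krt10 probe at chr11:99247994-99248053. The Krt14, Krt4 and first Krt13 positions span more than the 60 bases of the probe, so these probes cross from one exon into the next. The first Krt10 probe, at chr11:99246939-99247281, crosses such a junction too. The remaining probes lay at chr15:101537514-101537573 (Krt5), chr15:101676107-101676166 (first Krt1 probe), chr15:101776589-101776648 (Krt78) and chr15:101715054-101715113 (Krt76). The type II genes thus lay on chromosome 15 and the type I genes on chromosome 11, the places of the known type II and type I keratin clusters of the mouse. The second Krt1 probe, at chr15:101678904-101678963, is placed on the plus strand, opposite to the first, so its values cannot be assigned to Krt1 with certainty.

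RefSeq promoter sequence (build GRCm38.p6) was at hand for 6 of the 9 genes. Printed are the 250 bases before the start of Krt76 and of Krt5, whose promoter gives K5-CreER its name. Among the keratins with no saturated spot, Krt76 had the largest difference in the sample channel and Krt5 the smallest. Both are on the minus strand, Krt76 at chr15:101892921-101893170 and Krt5 at chr15:101712906-101713155, and capitals mark a TATAAA box.
Krt76 promoter: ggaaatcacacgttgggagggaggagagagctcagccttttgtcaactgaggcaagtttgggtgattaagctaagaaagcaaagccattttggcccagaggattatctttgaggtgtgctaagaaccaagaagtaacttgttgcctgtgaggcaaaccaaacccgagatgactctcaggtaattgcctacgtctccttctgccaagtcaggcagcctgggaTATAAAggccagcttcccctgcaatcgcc
Krt5 promoter: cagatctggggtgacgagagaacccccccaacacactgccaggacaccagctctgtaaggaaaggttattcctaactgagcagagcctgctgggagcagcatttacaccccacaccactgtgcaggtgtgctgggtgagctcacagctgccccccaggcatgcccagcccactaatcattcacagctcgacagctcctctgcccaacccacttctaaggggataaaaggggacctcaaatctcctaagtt

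The TATA box TATAAA, the AP-1 site TGANTCA and the SOX core ATTGTT were searched on both strands. No match overlapped another. TATAAA was found in the promoters of Krt76 and Krt10 (2 of the 6 genes), against 12.4% of all 32851 promoters in the table. TGANTCA was found for Krt13 (1 gene, in both of its listed starts), against 6.75%, and ATTGTT for 0 of the 6, against 9.42%. The percentages count each promoter, whereas a keratin gene counts as matched if any of its listed starts matches. A match is a description of the letters and not a site in use.

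The arrays differed in ways that bear on the keratins. Controls 1 and 2 shared slide 1, control 3 was alone on slide 2 and was scanned on another day, and the mutants shared slide 3, so genotype and slide cannot be told apart. Control 3 was also dimmer, with a median Cy5 signal 4.81 times its background, where the other 5 arrays had 12.1 to 13.1. Of all pairs of arrays, controls 1 and 2 (0.156 log2 units, scaled median absolute difference) and mutants 2 and 3 (0.104) were by far the closest, the rest lying 0.326 to 0.729 apart, and whether the close pairs came from separate animals is not stated beyond the term biological replicate. The Sox2 probe, which the sources do not place inside or outside the transgene, read 6.24 ± 0.15 (SD, n = 3) in controls and 5.82 ± 0.14 in mutants (log2 ratio), and so does not check the labels. All 7 basal and all 8 suprabasal squamous markers passed the filter on dim probes. The basal markers, which include Krt5, Krt14 and Krt15, had summed sample signals of 817500 to 1058233 in controls and 942598 to 1466342 in mutants. The suprabasal ones, which include Krt4 and Krt13, had 2488993 to 4624392 (highest on control 3) and 1455676 to 2093355. Since both lists hold keratins described here, their sums are not a separate measure of cell content. Those suprabasal sums are lower limits on every array but control 3, since Lor was saturated there. All 14 markers of the glandular stomach passed as well, with a summed sample signal of 14384 on control 3, up to 1959041 on the other controls and 309203 to 1262205 in mutants. All 9 immune markers passed, with summed signals of 104735 to 205018 in controls and 765883 to 1161090 in mutants (lower limits, since S100a9 was saturated on all mutants), and all 11 markers of fibroblasts, muscle and vessels, with 108243 to 488738 and 348101 to 457896. Control 3 was the lowest array for the immune list and for that of fibroblasts, muscle and vessels. The part of these other cells in the keratin values was not tested, and in bulk RNA fewer cells of a type and less RNA per cell cannot be told apart.

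By the log2 ratio of sample over reference, the value the design compares, all 9 keratins were on average lower in the mutants, by a median of -0.65 log2 units against 0.0054 over all genes tested. For Krt1 and Krt10 these values come from their first probes and rest in part on saturated spots, described with those genes. At those probes the order between the groups is not known. The median over the other 7 was -0.65 as well. None of the 9 passed an adjusted p of 0.05 in limma, where 2.82% of all genes did in either direction. At an unadjusted p under 0.05 there were 5 of 9, against 23.8% of all genes. In 5 of the 7 keratins with no saturated spot (Krt5, Krt14, Krt15, Krt78 and Krt76) every mutant lay below every control, as it did for 18.1% of all genes. In an exact two-sided permutation test, 3 arrays against 3 cannot go below p = 0.1. Any gene whose groups do not overlap reaches that value, so the test adds nothing for these 5 genes. Without control 3 the differences ran from -1.18 (Krt76) to -0.02 (Krt10), and the lowest after Krt76 was -0.47 (Krt15). All 9 were still negative and none passed the threshold, while 7.21% of all genes did.

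**Figure D1:**
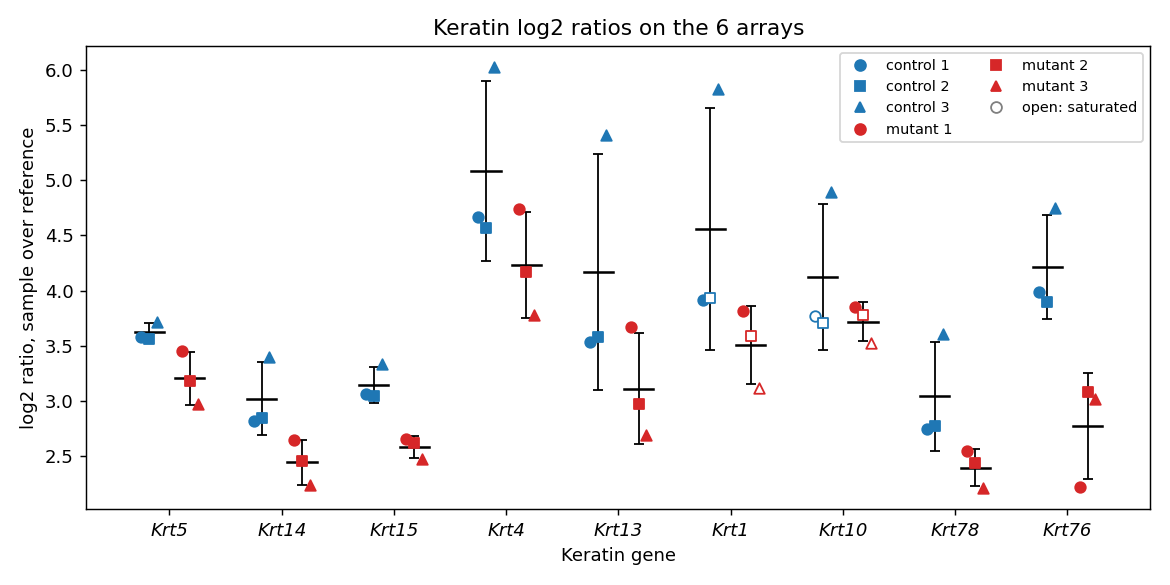
Log2 ratio of sample over reference for the 9 keratins on each of the 6 arrays (points), with the group mean and SD (black bars, n = 3). Open symbols are saturated spots, whose ratios are lower limits. Control 3 (blue triangle) was the highest array for the 7 genes with no saturated spot, and the mutants lay below all controls for Krt5, Krt14, Krt15, Krt78 and Krt76.

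The ratio and the sample channel alone did not give the same picture. With the Cy5 channel taken by itself, after loess and scaling of the arrays to one another (Aquantile), Krt76 fell 8.75-fold and was the only one of the 9 past the threshold. Krt5 and Krt14, which had negative differences in the ratio, had positive ones of 0.08 and 0.72. Lower calls made up 0.865% of all genes in this fit and higher calls 0.821%. Of the 7 keratins with no saturated spot, every mutant lay below every control for 2 (Krt4 and Krt76), against 17.3% of all genes, and above every control for 1 (Krt14), against 17.9%.

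**Figure D2:**
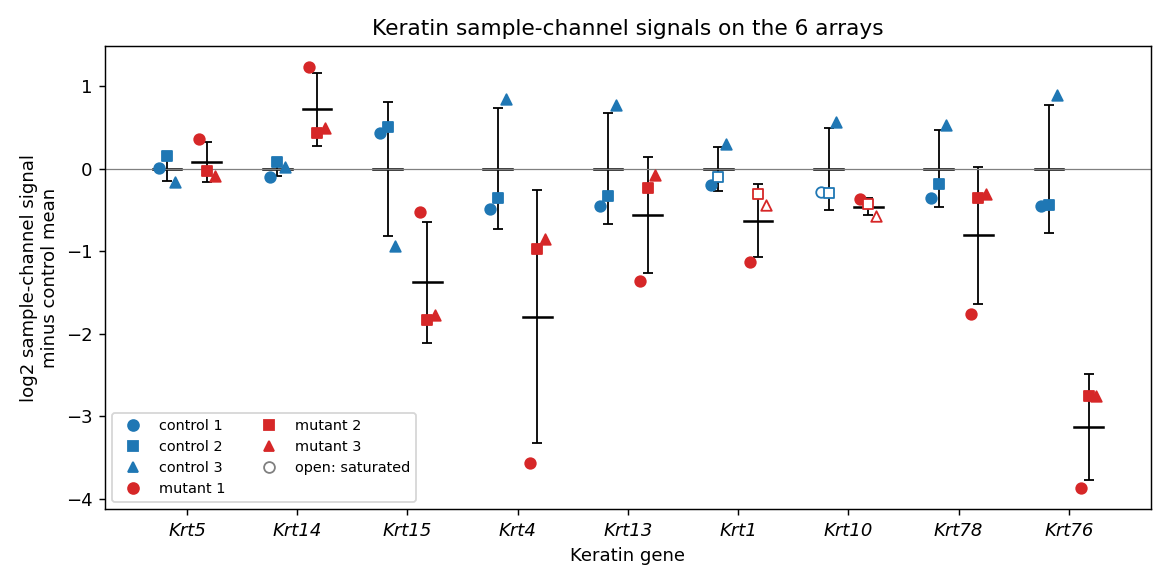
Log2 sample-channel signal of the 9 keratins on each array, minus the control mean of the gene (points), with the group mean and SD (black bars, n = 3); open symbols are saturated spots. Krt76 was 2.76 to 3.87 units below the control mean in all mutants, Krt4 was far below it on mutant 1, and Krt14 was above it in all mutants.

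Among the basal keratins, Krt5, the type II partner, had log2 ratios of 3.58, 3.56 and 3.71 on controls 1 to 3 and 3.45, 3.18 and 2.97 on mutants 1 to 3. All mutants lay below all controls, with 0.11 units between the lowest control and the highest mutant. The difference was -0.42 (SE 0.16) with an adjusted p of 0.178. Its sample-channel levels were 18.50, 18.64 and 18.33 in controls and 18.85, 18.47 and 18.41 in mutants. These overlapped, and the difference of 0.08 (SE 0.18) had an adjusted p of 0.807.

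Krt14, the type I partner of Krt5, had log2 ratios of 2.81, 2.84 and 3.40 in controls and 2.64, 2.45 and 2.23 in mutants. The mutants were again all lower, by a mean of -0.58 (SE 0.21, adjusted p = 0.166). The sample channel turned the order: 17.54, 17.71 and 17.65 in controls and 18.87, 18.07 and 18.12 in mutants. All mutants lay above all controls, 1.65-fold on average, which did not pass (difference 0.72, SE 0.24, adjusted p = 0.183). The raw sample signals were 243976, 276733 and 95323 in controls and 620971, 398738 and 463189 in mutants, with mutant 1 highest and control 3 lowest.

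Krt15, a type I keratin of basal cells often used to mark progenitors, was lower on both scales. Its log2 ratios were 3.06, 3.04 and 3.33 in controls and 2.65, 2.61 and 2.47 in mutants, with no overlap. The difference was -0.56 (SE 0.13, adjusted p = 0.0837), the next smallest p after that of Krt76. Its sample channel read 16.68, 16.76 and 15.31 in controls and 15.72, 14.42 and 14.47 in mutants. Here control 3 was below mutant 1, so the groups overlapped, and the 2.60-fold lower mean had an adjusted p of 0.221. Without control 3 it was 3.60-fold lower (difference -1.85, adjusted p = 0.0702).

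The basal pair did not keep step in the sample channel. Set to a control mean of 0, the difference of Krt5 minus Krt14 was 0.10, 0.07 and -0.18 in controls and -0.87, -0.46 and -0.57 in mutants. All mutants were thus below all controls, which shows unequal change of the 2 probes and no more. In the ratio the same difference was 0.17, 0.12 and -0.29 in controls and 0.21, 0.13 and 0.14 in mutants, and the groups overlapped.

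Of the mucosal suprabasal pair, Krt4, the type II member, had log2 ratios of 4.67, 4.57 and 6.03 in controls and 4.74, 4.17 and 3.78 in mutants. The groups overlapped at mutant 1, and the difference was -0.86 (SE 0.45, adjusted p = 0.292). The sample channel put mutant 1 far from the rest: 17.76, 17.90 and 19.10 in controls and 14.69, 17.29 and 17.41 in mutants. No mutant reached a control, but the 3.47-fold lower mean did not pass (difference -1.80, adjusted p = 0.277), and without mutant 1 the difference was -0.91. The raw sample signal was 275335, 307676 and 255579 in controls and 30018, 220470 and 257912 in mutants. On that unscaled signal mutant 3 lay within the range of the controls, mutant 2 somewhat below it and mutant 1 far below.

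Krt13, the type I partner of Krt4, was measured by a pair of probes. The first and brighter gave log2 ratios of 3.53, 3.57 and 5.41 in controls and 3.67, 2.97 and 2.68 in mutants, so mutant 1 was above controls 1 and 2. The difference was -1.07 (SE 0.55, adjusted p = 0.292). The second gave 4.77, 4.69 and 5.24 in controls and 3.84, 4.29 and 3.86 in mutants. These did not overlap, and the difference of -0.90 (SE 0.20) had an adjusted p of 0.0741 over all probes.

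Neither Krt13 probe separated the groups in the sample channel. The first read 17.81, 17.93 and 19.03 in controls and 16.89, 18.02 and 18.18 in mutants, a difference of -0.56 (SE 0.47, adjusted p = 0.525), and -0.17 without control 3. The second had a difference of -0.15 (SE 0.37). Krt4 minus Krt13 in that channel, set to a control mean of 0, was -0.04, -0.02 and 0.07 in controls and -2.20, -0.73 and -0.77 in mutants. Krt4 was thus lower relative to its partner in all mutants, while in the ratio the same measure overlapped (0.22, 0.08 and -0.30 against 0.15, 0.28 and 0.18).

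The cornifying pair, Krt1 and Krt10, was limited by the range of the scanner. The first Krt1 probe was saturated on control 2 and mutants 2 and 3, and the first Krt10 probe on controls 1 and 2 and mutants 2 and 3. The second Krt10 probe was saturated on control 2 only. No probe of the other 7 genes was saturated on any array. A saturated signal stands at or near the limit of 778453 to 778632 units whatever lies beyond, so the values of such spots are lower limits. At the first probes of Krt1 and Krt10 spots of both groups are limited, for Krt1 more in the mutants, and neither the size nor the direction of the difference is known there. At the second Krt10 probe only a control is limited, so the mean of the controls is a lower limit.

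**Figure D3:**
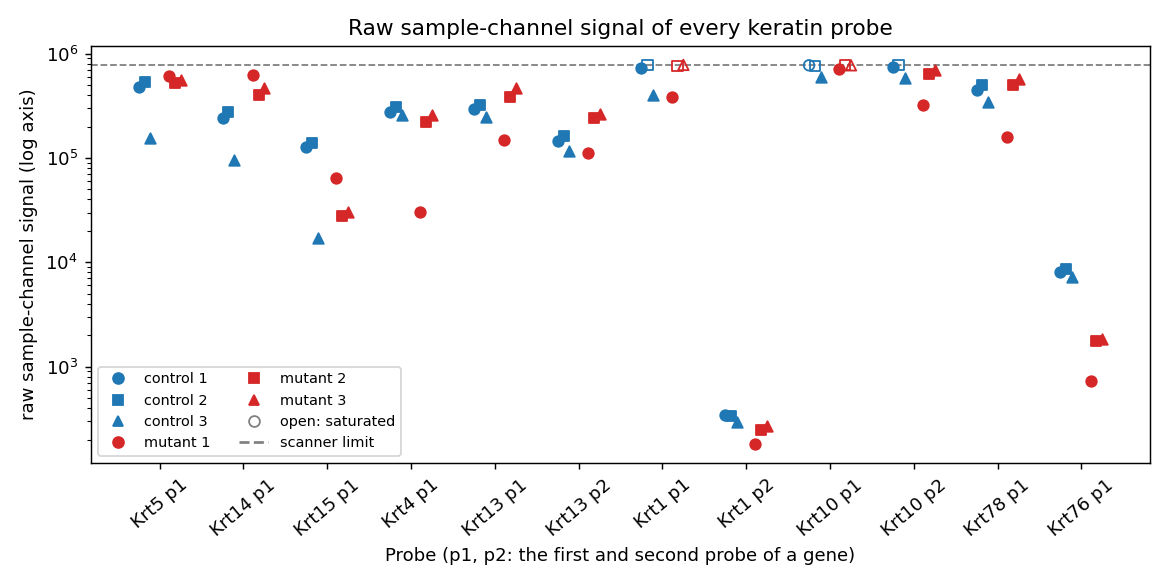
Raw sample-channel signal (log axis) of the 12 keratin probes on each array. Open symbols are saturated spots, which lie at or near the dashed scanner limit, and are found only among the probes of Krt1 and Krt10.

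Krt1, the type II partner, had log2 ratios of 3.92, 3.93 and 5.83 in controls and 3.82, 3.59 and 3.12 in mutants at its first probe, where the values of control 2 and mutants 2 and 3 are lower limits. The difference of these limited values was -1.05 (SE 0.54, adjusted p = 0.288), and -0.42 without control 3. Its sample channel read 19.10, 19.19 and 19.60 in controls and 18.16, 18.98 and 18.85 in mutants. The difference of -0.63 (SE 0.27, adjusted p = 0.261) is again one of limited values. The unscaled signals were 729766, 776013 and 398938 in controls and 382061, 761765 and 778590 in mutants, where mutant 3 was the highest array. The probe on the opposite strand gave 347, 340 and 298 units in controls and 181, 246 and 273 in mutants.

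Krt10, the type I partner, gave unlike values at its 2 probes. The first, saturated on 4 arrays, had log2 ratios of 3.77, 3.71 and 4.89 in controls and 3.85, 3.78 and 3.52 in mutants. The difference was -0.41 (SE 0.33, adjusted p = 0.483) and -0.02 without control 3, both of limited values. The second, saturated on 1 array, had log2 ratios of 5.42, 5.61 and 6.93 in controls and 4.62, 4.79 and 4.46 in mutants. Here all mutants lay below all controls, with a difference of -1.36 (SE 0.39) and an adjusted p of 0.115 over all probes. Its raw sample signal was 737158, 778348 and 584049 in controls and 319520, 636132 and 702244 in mutants, lowest on mutant 1.

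Krt78, a type II keratin of suprabasal cells, had log2 ratios of 2.74, 2.77 and 3.60 in controls and 2.54, 2.43 and 2.20 in mutants. The mutants were all lower, by a mean of -0.65 (SE 0.26, adjusted p = 0.199). The sample channel read 18.38, 18.55 and 19.26 in controls and 16.96, 18.38 and 18.43 in mutants, and overlapped. The difference of -0.81 (SE 0.46, adjusted p = 0.376) was -0.33 without mutant 1, the lowest array for Krt4 as well.

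Krt76 is a type II keratin known from the suprabasal layers of the oral and upper digestive lining. Among the keratins with no saturated spot it had the largest difference on both scales. Its log2 ratios were 3.99, 3.89 and 4.75 in controls and 2.21, 3.08 and 3.01 in mutants. The difference of -1.45 (SE 0.32) missed the threshold (adjusted p = 0.0754). The raw sample signal was 8009, 8695 and 7183 in controls and 724, 1745 and 1826 in mutants, so the lowest control was several times the highest mutant.

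After scaling of the sample channel Krt76 read 12.84, 12.85 and 14.18 in controls and 9.41, 10.53 and 10.53 in mutants. It fell by 3.13 (SE 0.48, limma adjusted p = 0.0439), and by 2.68 without control 3, with an adjusted p of 0.0289. The call was lost without any one of the other arrays (adjusted p 0.0803 to 0.160), with the close pairs averaged (0.485) and with slide as a random block (0.892), while the difference stayed between -3.54 and -2.68 in all of these. Its probe was not saturated on any array.

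The reference channel held the same RNA on every array, yet at the keratin probes its group means were not alike. The difference in that channel was 0.50 for Krt5, 1.30 for Krt14, -0.81 for Krt15, -0.94 for Krt4 and 0.50 for Krt13. It was 0.42 for Krt1, -0.05 for Krt10, -0.16 for Krt78 and -1.68 for Krt76. None passed the threshold (smallest adjusted p = 0.0599, Krt76), and 3 had an unadjusted p under 0.05, against 8.62% of all genes. For 3 (Krt5, Krt14 and Krt76) the groups did not overlap, against 24.4% of all genes.

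**Figure D4:**
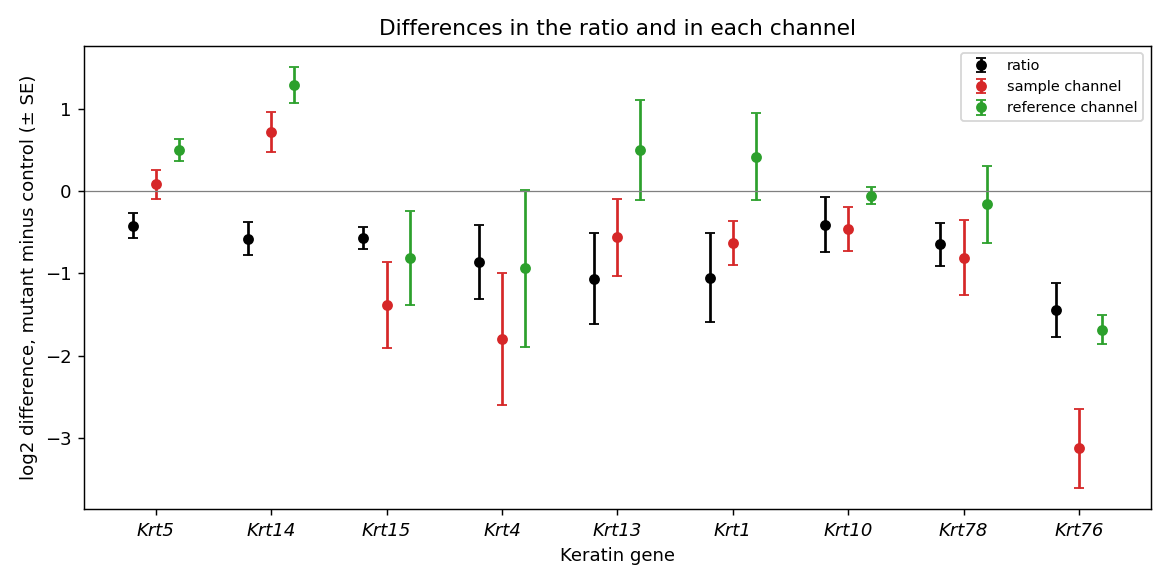
Difference between mutants and controls (log2, with the SE of the fit) in the ratio (black), in the sample channel (red) and in the reference channel (green). For all genes but Krt13 and Krt1 the reference difference has the sign of the sample difference. For those other genes the ratio difference is smaller than the sample difference or opposite to it. The values of Krt1 and Krt10 rest in part on saturated spots.

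The median size of the reference difference was 0.50 over the 9 keratins and 0.12 over all genes. Krt76 shows the pattern in raw units, with reference signals of 518, 496 and 373 in controls and 126, 181 and 192 in mutants. For Krt4 the reference read 8536, 8807 and 4891 in controls and 1064, 9211 and 13149 in mutants, lowest on mutant 1 where the sample signal was lowest too. Over the 11 probes on the expected strand the reference signal was 1.0% to 17.4% of the sample signal of the same spot. The ratio difference is the sample difference minus the reference difference, so it is smaller than the sample difference, or of opposite sign, where both channels move one way. The cause of the movement was not tested.

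Among 10 stress and simple keratins, 9 had a positive and 1 a negative difference in the ratio, with a median of 0.45, and none passed. Without control 3 that median was -0.29. The 3 with the smallest p were Krt23 (-0.77, adjusted p = 0.241, with mutant 3 saturated), Krt20 (2.87, adjusted p = 0.272) and Krt7 (0.38, adjusted p = 0.56). By sample channel 1 passed, Krt6b, a wound- and stress-induced type II keratin, which rose by 6.37 (adjusted p = 0.016; past the threshold in 2 of 6 fits that leave out 1 array, those without control 3 or mutant 1). It is named here, with Krt6a and Krt16, after its values were seen.

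Krt6b had raw sample signals of 2387, 3837 and 309 in controls and 209890, 156797 and 174457 in mutants. Its reference signals were 143, 219 and 76 in controls and 13200, 9334 and 11350 in mutants. All mutants stood far above all controls in both channels, and the ratio difference was 0.36 (adjusted p = 0.702). Krt6a and Krt16, with sample differences of 6.79 and 4.55 (adjusted p = 0.0912 and 0.0791), had reference differences of 6.23 and 4.05. Krt6a was not well above background on control 3 and Krt16 was saturated on mutant 1, so their differences hold values that are limits.

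Of 34 other keratins, mainly of hair and nail, 17 were tested, 5 positive and 12 negative with a median of -0.12. Krt33b, a hair keratin, rose by 2.54 (adjusted p = 0.0071) and Krt35, also of hair, fell by 1.14 (adjusted p = 0.0221). Leaving out 1 array kept the call in 4 of 6 fits for Krt33b (not without mutants 2 or 3) and 2 of 6 for Krt35 (without control 3 or mutant 1). Both passed in the sample channel too, at 4.60 and -1.28, kept in 2 of 6 such fits for Krt33b (without control 3 or mutant 1) and 1 of 6 for Krt35 (without control 3). Krt36 had a difference of -0.75 (adjusted p = 0.051). No other member of this list passed.

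Of 21 proteins that link or anchor keratin filaments, 7 were positive and 14 negative, with a median of -0.19, and none passed. The smallest p values were those of Dsg1a, a desmosomal cadherin of upper layers (-2.39, adjusted p = 0.0943), Eppk1, epiplakin (-1.31, adjusted p = 0.124) and Dst, whose epithelial form anchors filaments at hemidesmosomes (-0.73, adjusted p = 0.151). Named after their values were seen, Dsc2 and Dsg3, both desmosomal cadherins, rose by 3.43 and 1.88 in the sample channel (adjusted p = 0.0276 and 0.0161), with ratio differences of 0.19 and -0.06. Those calls held in 1 of 6 fits that leave out 1 array (Dsc2, without control 3) and 2 of 6 (Dsg3, without control 3 or mutant 1).

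Of 21 regulators of squamous keratin genes, 20 were tested, 3 positive and 17 negative, with a median of -0.51 (-0.29 without control 3). Pax9, a transcription factor of foregut epithelium, rose by 1.77 (adjusted p = 0.0134) and was the only call, kept in 3 of 6 fits that leave out 1 array (lost without control 2, mutant 2 or mutant 3). Cebpb and Tfap2a, transcription factors active in keratinocytes, had differences of -1.18 (adjusted p = 0.0641) and -0.54 (adjusted p = 0.103).

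The basal marker list, to which Krt5, Krt14 and Krt15 belong, had 1 positive and 6 negative members in the ratio (median -0.42), with a sample-channel median of 0.13. The suprabasal list, which holds Krt4 and Krt13, had 0 positive and 8 negative (median -1.05), with a sample-channel median of -1.21. Of these, Krtdap was saturated on 4 arrays and Lor on 5, in both groups, so the signs of their differences are not known. Within it Ivl, a cornified envelope precursor, fell by 3.08 in the sample channel (adjusted p = 0.0259, kept in 2 of 6 fits that leave out 1 array, those without control 3 or mutant 1) and had a ratio difference of -1.26 (adjusted p = 0.0614). Among immune markers 8 of 9 were positive in the ratio. Of the 9, 3 passed the threshold as higher, where 2.82% of all genes passed in either direction. S100a8 kept its call without any 1 array, Cd68 only without control 3 or mutant 1, and Csf1r only without control 3.

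The genes whose centred log2 ratios over the 6 arrays lay nearest to each keratin were taken from 15920 genes, by the root-mean-square difference in log2 units. They were Mbd6 (0.062) and Dpp10 (0.063) for Krt5, Pla2g4e (0.043) and Wfdc5 (0.050) for Krt14, and Serpinb3c (0.054) and Sphk1 (0.054) for Krt15. For the mucosal pair they were Lce1a2 (0.080) and Cyp2f2 (0.12) for Krt4, and Hrnr (0.11) and Lce1g (0.15) for Krt13. For the cornifying pair they were Rptn (0.040) and Lce1g (0.063) for Krt1, and Mocos (0.053) and Cyp26b1 (0.070) for Krt10. Teddm3 (0.021) and Tmprss13 (0.054) lay nearest to Krt78, and Arhgap29 (0.070) and Cish (0.099) to Krt76. Hrnr, Rptn and the Lce1 genes encode proteins of the cornified envelope. The profiles of Krt1 and Krt10 hold saturated values. The 6 arrays hold 2 close pairs, so these profiles rest on fewer than 6 distinct points.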

How the data were processed

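RNA of 3 control and 3 mutant samples was hybridised to 2-colour Agilent arrays. The authors deposited spot intensity values, mean signal and local background in each channel, as the scanner software wrote them; per the file headers this was Agilent Feature Extraction 10.5.1.1 (10.7.3.1 for control 3) with build mm9, while the submitters' processing notes give 9.1. They also deposited a log2 ratio table, used as an alternative, whose normalization and centring are not given in the sources used here. Regressed on the scanner ratios of the same label, its columns have slopes of 0.978 to 1.17, so they run as sample over reference on a log2 scale. Their medians are 0.052, 0.06 and 0.026 (controls 1 to 3) and 0.042, 0.043 and 0.039 (mutants 1 to 3). Its columns for mutants 1 and 3 matched each other's scanner file best (r = 0.973 and 0.969). The slopes under these 2 labels (1.08 and 0.978) therefore set one array against another. Statements on single mutants follow the scanner files. Other flags (saturation, well above background) are the deposited values.

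Signals were corrected by normexp (offset 50) and loess in limma 3.58.1 (R 4.3.3), with control and outlier spots at weight 0, and spots averaged per probe. Probes well above background on at least 3 of 6 arrays entered, and the brightest probe stood for a gene; 79.5% of 41174 probes were named through RefSeq (GRCm38.p6). lmFit and eBayes compared the groups, two-sided, with Benjamini-Hochberg adjustment over 20575 genes, 4 residual degrees of freedom. Sample and reference channels were taken after loess and Aquantile. 

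The members and lists were chosen with earlier results of these data known. Named genes are the 9 members, up to 3 per list (past the threshold or with the smallest p) and the 2 nearest profiles per member; exceptions are marked. The number of arrays limits precision, and since no label names separate animals, p-values reflect only how these samples vary, which may be technical. Replicate numbers did not pair arrays (r of same-numbered deviations 0.0044, 0.0201 and 0.126).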

Additional observations from a re-analysis of the deposited data

How the results depend on the processing

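The keratins kept a negative difference in every alternative run on the ratio that gave them a value. With probes saturated on any array left out, Krt10 had none and Krt1 had only the opposite-strand probe (-0.31). The sizes varied with the setting. With the arrays scaled to one spread, Krt76 had -1.17, Krt5 -0.11 and Krt10, on limited values, -0.06. There 1 of the 9 had an unadjusted limma p under 0.05 (4231 of all 20575 genes), against 5 in the main fit (4907). With the replicate block it was 2 (4625), and with trend and robust eBayes 2 (4849). None of the 9 passed the threshold except in the 2 settings that down-weight or leave out control 3 and mutant 1. Array weights and leaving both out each gave 8 of 9 past it, with Krt10 the exception and Krt1 included on limited values. Over all genes, array weights called 11560 of 20575 and leaving both out called 7729 of 20566. Counts of called genes, 581 in the main comparison, were 325 with the scanner software's processed signals, 269 with median centring, 4 with slide as a random block, 1483 with scan day as a block or within the scan day holding both groups, 11560 with array weights, 0 with the close pairs averaged (2198 at an unadjusted p under 0.05) and 7729 without control 3 and mutant 1. Control 3 was the only array of its scan day, so both scan-day settings equal the fit without control 3. The replicate block gave 137 and called none of the 9. The fit of the sample channel called 347 genes, the quantile-normalized one 312 and the reference channel 28; the first 2 called 1 of the 9, Krt76. In the sample channel, alternatives added after seeing the data gave 0 genes with close pairs averaged and 0 with slide as a random block, and 1 of the 9 without control 3. Leaving out 1 array at a time gave 34 to 1483 genes in the ratio and none of the 9. In the sample channel it gave 6, 8 and 1503 genes without controls 1, 2 and 3 and 321, 5 and 7 without mutants 1, 2 and 3.

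Krt5 and Krt14 turned positive outside the ratio: 0.29 and 0.94 in the quantile-normalized sample channel, 0.084 and 0.72 after Aquantile, 0.19 and 0.84 with close pairs averaged, 0.12 and 0.72 with slide as a block, and 0.50 and 1.30 in the reference channel, where Krt13 (0.50) and Krt1 (0.42) did too. With 1 array left out of the sample channel (controls 1, 2, 3, then mutants 1, 2, 3), Krt14 was 0.671, 0.758, 0.729, 0.462, 0.861 and 0.834; Krt5 was 0.088, 0.160, 0.0046, then negative without mutant 1, 0.138 and 0.168. The cause was not tested.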
